A study of Danio rerio with 26 samples.

Results

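The proline- and acid-rich (PAR) basic leucine zipper genes and their NFIL3 counterpart were measured in the skin of 26 male zebrafish. The 6 genes were taken by identifier or symbol from the 32105 genes counted. They were tefa (ENSDARG00000039117), tefb (ENSDARG00000098103), dbpa (ENSDARG00000063014), dbpb (ENSDARG00000057652), hlfa (ENSDARG00000074752) and nfil3-5 (ENSDARG00000094965). Every fish gave 1 RNA sequencing library, and all had been given rotenone, which blocks mitochondrial complex I. The groups were 8 fish of 3 years at 37.5 nM rotenone, 9 of 1 year at 37.5 nM and 9 of 1 year at 3.75 nM. The 3-year fish were AB JxTu Tg(flk:mCherry), in which the promoter of flk, a receptor gene of blood vessel endothelium, drives a red fluorescent protein. Both 1-year groups were AB JxTu without a named transgene. Age and transgene therefore cannot be told apart, and neither can rotenone concentration and deposited count table, since each concentration had its own table. No untreated fish were included, and neither the length of treatment nor the time of day at sampling is known from the labels.

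Tef, Dbp and Hlf are transcription factors that bind D-box elements and activate genes from them. NFIL3 (E4BP4) proteins bind the same elements and mostly repress. In mammals, Dbp is driven through E-boxes by CLOCK and BMAL1, whereas Nfil3 is under the opposing REV-ERB (NR1D) and ROR receptors, so that transcripts of the activators and of the repressor peak at different times of day. Zebrafish tissues, skin included, respond directly to light, and D-boxes are known there as elements through which light switches genes on. Teleost fish keep duplicates of many of these genes, hence the a and b copies. In bulk tissue, fewer cells of a type and less RNA per cell cannot be told apart.

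Fish numbers in the labels fell into separate low and high runs within each group, with no stated meaning. The high run held 14 fish and the low run 12. The groups had 4 and 4 fish in the high and low run at 3 years, 5 and 4 at 1 year and 37.5 nM, and 5 and 4 at 1 year and 3.75 nM. Depth lay between 25454674 and 35162246 counts per fish. The low-run fish at 3.75 nM stood apart from the other fish. Between concentrations, 3418 of 20482 genes (16.7%) passed an adjusted p of 0.05 within the low run and 4 (0.0195%) within the high run, by edgeR's quasi-likelihood test on a model of the 6 combinations of group and run. The skin label went with its markers. Summed keratinocyte markers had a median of 52600 CPM (normalised counts, scaled to library size) at 3 years, 54100 CPM at 1 year and 37.5 nM, and 46300 CPM at 1 year and 3.75 nM.

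Per length, tefa was the most abundant of the 6. It averaged 105 ± 29.0 CPM per kb over all fish (SD, n = 26), a level above that of 97.2% of the 19469 genes ranked. Then came tefb with 28.3 ± 10.1 CPM per kb, nfil3-5 with 25.7 ± 17.7 CPM per kb and hlfa with 18.6 ± 5.53 CPM per kb, at percentiles 90, 88.9 and 84.5. The Dbp genes were low. The level of dbpb was 1.74 ± 0.658 CPM per kb and that of dbpa 1.16 ± 0.791 CPM per kb, at percentiles 31.7 and 24.4. Counts per fish lay between 40 and 298 for dbpa and between 95 and 459 for dbpb, against 4343 to 12108 for tefa. The means of tefb, nfil3-5 and hlfa lay within 1 SD of tefb of each other.

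**Figure D1:**
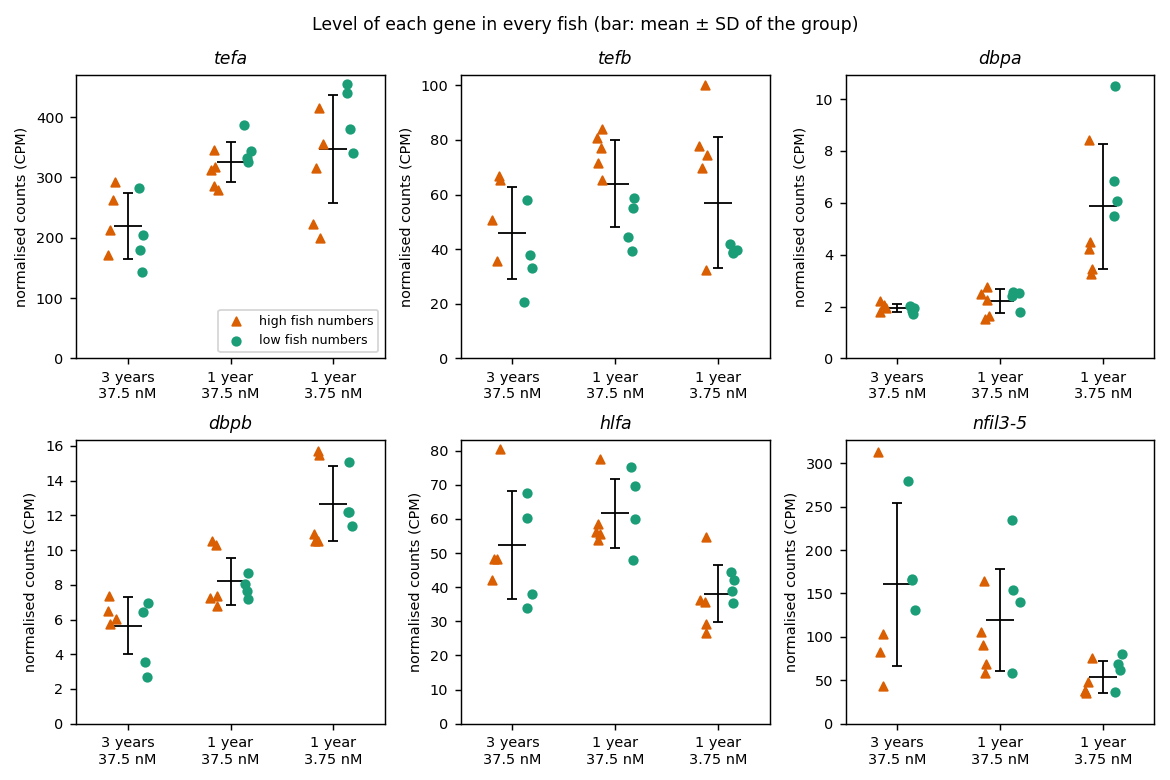
Normalised counts (CPM, linear axes from 0) of the 6 genes in every fish, by group; triangles are high and circles low fish numbers, and bars are the group mean ± SD (n = 8, 9 and 9). All 9 fish at 1 year and 37.5 nM lie below all 9 fish at 3.75 nM for dbpa (highest 2.76 against lowest 3.24 CPM), and tefa is lowest at 3 years.

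Between the rotenone concentrations, at 1 year, both Dbp genes were lower and hlfa and nfil3-5 higher at 37.5 nM than at 3.75 nM, while neither Tef gene passed the test. The comparison asks how the skin differs with concentration at 1 age. Of the 6 genes, 4 passed an adjusted p of 0.05, against 4.28% of the 18793 genes tested. The 2 that were higher stand beside 1.28% of all genes, and the 2 that were lower beside 3% of all genes. The 6 genes were chosen with earlier results of these data known, so these shares are a description and not a test. A plot of the log2 fold changes shows the 6 genes side by side for each comparison.

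Among the activators, dbpa moved most. At 37.5 nM it had a lowest value of 1.52 CPM, a median of 2.4 CPM and a highest value of 2.76 CPM, against 3.24, 5.49 and 10.5 CPM at 3.75 nM. The groups did not overlap, which held for 0.0561% of the 19592 genes compared. The difference was -1.41 ± 0.22 on the log2 scale (± SE, edgeR's quasi-likelihood test, Benjamini-Hochberg adjusted p = 0.0176). The paralogue dbpb had a lowest value of 6.77 CPM, a median of 7.67 CPM and a highest value of 10.5 CPM at 37.5 nM, against 10.5, 12.2 and 15.7 CPM at 3.75 nM. It was lower in 97.5% of the 81 pairs of fish, with the overlap at the top of the 37.5 nM group, and its log2 fold change was -0.63 ± 0.12 (edgeR adjusted p = 0.031).

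Another activator gene, hlfa, went the other way. It had a lowest value of 47.9 CPM, a median of 58.6 CPM and a highest value of 77.6 CPM at 37.5 nM, against 26.5, 36.3 and 54.7 CPM at 3.75 nM. All 9 fish at 37.5 nM were above the median of the 3.75 nM fish. The log2 fold change was 0.69 ± 0.13 (edgeR adjusted p = 0.031). The repressor-family gene nfil3-5 had a lowest value of 57.9 CPM, a median of 106 CPM and a highest value of 235 CPM at 37.5 nM, against 35.7, 47.7 and 80.2 CPM at 3.75 nM. It was higher in 86.4% of the pairs of fish, and the ranges overlapped between 57.9 and 80.2 CPM. Its log2 fold change was 1.14 ± 0.27 (edgeR adjusted p = 0.0315). Within the 37.5 nM group its values spread widely, with a coefficient of variation of 49.5%.

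Neither Tef gene passed the test. At 37.5 nM, tefa averaged 325 ± 32.6 CPM and at 3.75 nM 347 ± 89.6 CPM (SD, n = 9 each), a log2 fold change of -0.10 ± 0.14 (edgeR adjusted p = 0.718). For tefb the means were 64.0 ± 15.9 CPM at 37.5 nM and 57.0 ± 23.9 CPM at 3.75 nM, a log2 fold change of 0.16 ± 0.22 (edgeR adjusted p = 0.717). The coefficient of variation was 10% for tefa and 24.9% for tefb at 37.5 nM, and 25.8% and 41.9% at 3.75 nM.

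**Figure D2:**
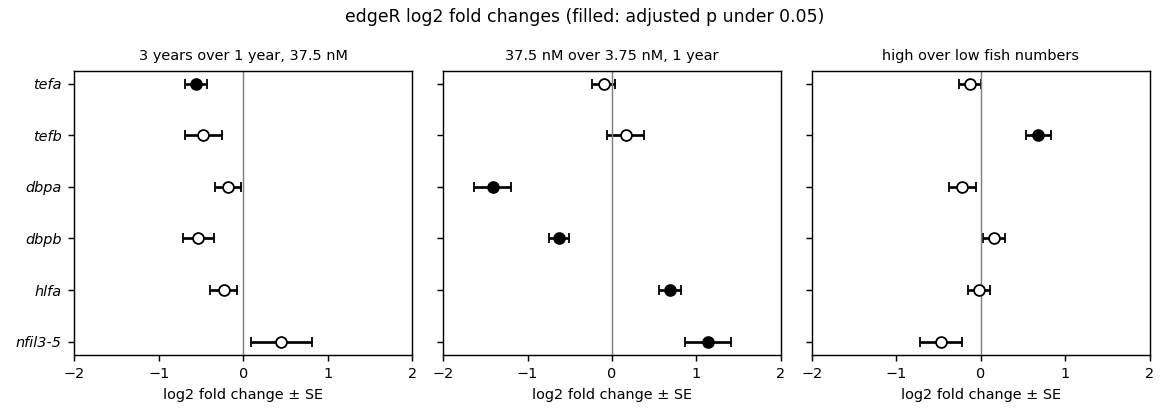
Log2 fold change ± SE of the 6 genes (rows) in 3 comparisons (panels), from edgeR; filled points have an adjusted p under 0.05. Filled are tefa for age (-0.56), dbpa, dbpb, hlfa and nfil3-5 for concentration (-1.41, -0.63, 0.69 and 1.14) and tefb for the fish number runs (0.68).

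Each of these 4 differences had the same sign in the high and the low run, which the pooled call on the same fish makes likely. For dbpa the log2 fold change was -1.16 ± 0.24 in the high run and -1.66 ± 0.28 in the low run, and for dbpb -0.57 ± 0.21 and -0.70 ± 0.23. For hlfa the values were 0.74 ± 0.21 in the high run and 0.64 ± 0.24 in the low run, and for nfil3-5 1.06 ± 0.43 and 1.22 ± 0.48. None of the 6 genes passed the test of the difference between runs, which 2.29% of all genes passed (edgeR adjusted p = 0.502 for dbpa, whose difference was 0.50 ± 0.36, and above that for the other 5). Within a single run, dbpa (edgeR adjusted p = 0.000403) and dbpb (0.039) passed in the low run, as did 16.7% of all genes. None of the 6 passed in the high run, where 0.0195% of all genes did and dbpa had an edgeR adjusted p of 0.168. The unadjusted edgeR p there was 8.81e-05 for dbpa, 0.00211 for hlfa, 0.0106 for dbpb and 0.0208 for nfil3-5. It was 0.879 for tefa and 0.681 for tefb. The plot of differences within runs shows the log2 fold changes.

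**Figure D3:**
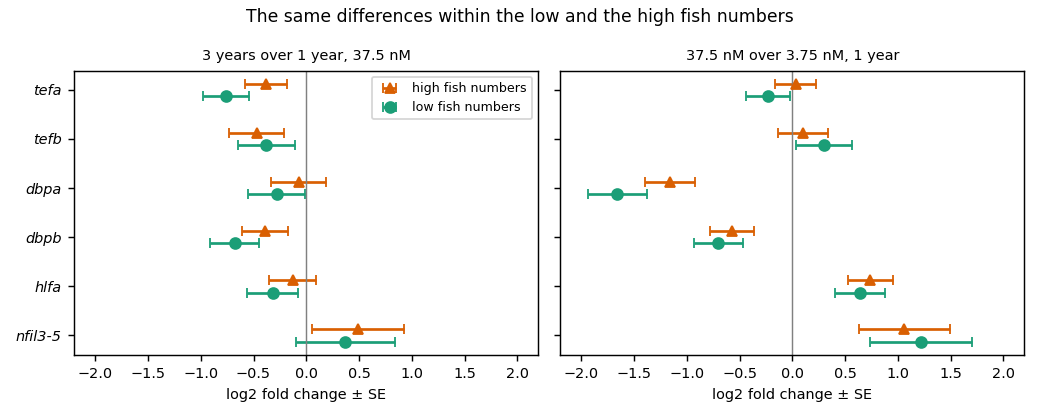
Log2 fold change ± SE of the 6 genes within the high (triangles) and the low (circles) fish numbers, for age (left) and concentration (right), from edgeR's fit of the 6 combinations of group and run. For dbpa, dbpb, hlfa and nfil3-5 the concentration difference has the same sign in both runs, from -1.66 and -1.16 for dbpa to 1.22 and 1.06 for nfil3-5.

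Leaving out single fish moved the sizes little but ended several calls. The log2 fold change stayed between -1.53 and -1.29 for dbpa, between -0.69 and -0.60 for dbpb, between 0.60 and 0.77 for hlfa and between 0.96 and 1.23 for nfil3-5. The call of dbpa was lost in 2 of 18 omissions (replicate 7 at 37.5 nM and replicate 1 at 3.75 nM, edgeR adjusted p up to 0.0511). Those of dbpb and hlfa were lost in 8 omissions (replicates 1, 2, 3 and 7 at 37.5 nM and replicates 1 to 4 at 3.75 nM, edgeR adjusted p up to 0.0692). That of nfil3-5 was lost in 10, namely the same 8 and replicates 4 and 5 at 37.5 nM (edgeR adjusted p up to 0.0713). Over the omissions the unadjusted edgeR p reached at most 1.43e-05 for dbpa, 0.000138 for dbpb, 0.000211 for hlfa and 0.00148 for nfil3-5. The number of all genes called ran from 0 to 1661.

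Liver and muscle markers were compared between the same groups. The summed liver markers (6 genes) ranged from 2.62 to 149 CPM with a median of 13.4 CPM at 37.5 nM, and from 2.99 to 1000 CPM with a median of 334 CPM at 3.75 nM. None of the 6 passed an adjusted p of 0.05 by edgeR, but all 6 were lower at an unadjusted p of 0.05, beside 13.6% of all genes. Their median log2 fold change was -2.74, and none was at 0 in any fish. With the liver mean as a term in the fit, all 4 genes kept their calls, with log2 fold changes of -1.52, -0.69, 0.79 and 1.18 for dbpa, dbpb, hlfa and nfil3-5 (edgeR adjusted p up to 0.0381). Summed skeletal muscle markers (11 genes) ranged from 2340 to 18200 CPM at 37.5 nM and from 2840 to 30200 CPM at 3.75 nM, and none of the 9 tested passed the edgeR test (median log2 fold change -0.64). With the muscle mean as a term, dbpa (-1.33) and hlfa (0.75) kept an edgeR adjusted p of 0.0216, while dbpb (-0.62) had 0.0511 and nfil3-5 (1.11) 0.0565.

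Of 37 core clock genes tested, 10 passed the concentration test, against 4.28% of all 18793 genes. This list too was chosen with earlier results of these data known. Of the 10, 6 were higher and 4 lower at 37.5 nM, against 1.28% and 3% of all genes. The list's median log2 fold change was 0.15, beside -0.01 over all genes tested. The lower ones were NR1D1 (log2 fold change -2.13 ± 0.34) and NR1D2 (-0.70 ± 0.17), which encode REV-ERB repressors, PER1 (ENSDARG00000012499, -1.49 ± 0.22), which encodes a period repressor, and ciartb (-1.17 ± 0.25), an inhibitor of CLOCK and BMAL1 in mammals. Among the higher ones were BMAL1 (ENSDARG00000035732, 0.89 ± 0.18), which encodes the partner of CLOCK, and cry3a (0.60 ± 0.09), a cryptochrome gene. These 6 had edgeR adjusted p values from 0.0176 to 0.036. Also higher were cry3b (0.90 ± 0.23) and rorcb (1.32 ± 0.34), a gene of the ROR activators, which had an edgeR adjusted p of 0.0393. All 10 had the same sign in both runs, which their choice by the pooled test on the same fish makes likely. Within the low run 7 core clock genes passed as higher and 7 as lower, where 16.7% of all genes passed. Within the high run NR1D1 alone passed (-1.82 ± 0.32, edgeR adjusted p = 0.0432), where 0.0195% of all genes did. The plot of clock genes between concentrations places dbpa and dbpb on the side of the called PER1, NR1D1 and NR1D2. It places hlfa and nfil3-5 on the side of the called BMAL1 and rorcb. Other period, NR1D and BMAL1 genes did not pass. Lower were PER1 (ENSDARG00000056885, -0.94 ± 0.28) and PER3 (-0.66 ± 0.19). PER2 had -0.04 ± 0.17, and nr1d2a, at 246 CPM in both groups, had -0.01 ± 0.49. Higher were nr1d4a (0.23 ± 0.24), nr1d4b (0.78 ± 0.31) and BMAL1 (ENSDARG00000006791, 0.32 ± 0.21).

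**Figure D4:**
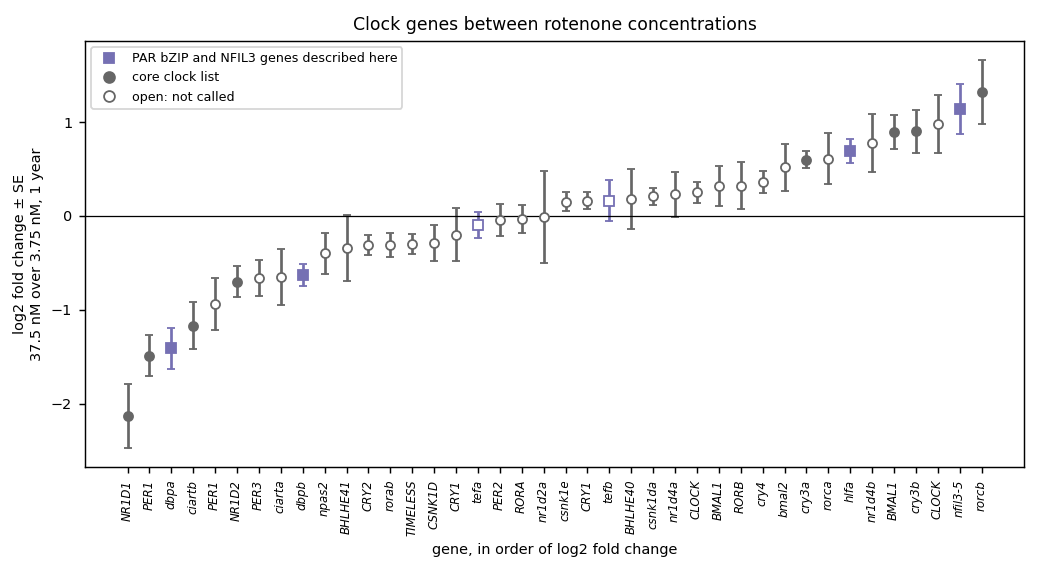
Log2 fold change ± SE, 37.5 nM over 3.75 nM at 1 year, of 34 core clock genes (circles) and the 6 genes described here (squares), in order of size; filled symbols have an edgeR adjusted p under 0.05. NR1D1 is lowest (-2.13), dbpa stands near the left end (-1.41) and nfil3-5 near the right end (1.14).

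Relatives of the 6 genes were also tested. Of HLF, NFIL3 and nfil3-6, none passed between concentrations by edgeR, and HLF and NFIL3 passed at an unadjusted p of 0.05. Each had a log2 fold change of 0.52, with edgeR adjusted p of 0.202 for HLF and 0.0878 for NFIL3, and that of nfil3-6 was 0.00 ± 0.31. In the low and the high run, HLF had 0.06 ± 0.39 and 1.08 ± 0.35, and NFIL3 0.24 ± 0.28 and 0.81 ± 0.25. None of these relatives passed the edgeR test of the difference between runs. Of 10 DNA repair and light-response genes known as light-driven in zebrafish, EXO5, an exonuclease gene, was the only one to pass (8.74 ± 2.28 CPM at 37.5 nM and 4.89 ± 1.99 CPM at 3.75 nM, SD, n = 9 each; edgeR adjusted p = 0.0474). Between concentrations 4.28% of all genes passed. The log2 fold change of EXO5 was 0.23 ± 0.20 in the high run (edgeR adjusted p = 0.924) and 1.74 ± 0.23 in the low run (0.000151). This difference between runs passed too (-1.51 ± 0.30, edgeR adjusted p = 0.019). Of the 10 genes, 2 passed as higher and 1 as lower within the low run, where 16.7% of all genes passed. For the difference between runs 1 passed as higher and 2 as lower, where 2.29% of all genes did. Of 12 genes known as PAR bZIP targets in mammals, none passed by edgeR, 3 passed at an unadjusted p of 0.05 (22.9% of all genes did), and the median log2 fold change was -0.13.

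Between ages, at 37.5 nM, tefa was lower in the 3-year fish, and it was the only 1 of the 6 genes to pass an adjusted p of 0.05. Of the 18935 genes tested, 1.27% passed in either direction and 0.597% were lower. The comparison asks how the skin differs with age under 1 concentration. At 3 years tefa had a lowest value of 144 CPM, a median of 209 CPM and a highest value of 293 CPM, against 279, 326 and 387 CPM at 1 year. All 8 fish at 3 years lay below the 1-year median, and the groups overlapped between 279 and 293 CPM. The log2 fold change was -0.56 ± 0.13 (edgeR's quasi-likelihood test, adjusted p = 0.0444).

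This call rested on a narrow margin. It was lost in 13 of 17 omissions of a single fish, and it was kept without replicates 1, 6, 7 or 8 at 3 years. The log2 fold change stayed between -0.64 and -0.50, with edgeR adjusted p from 0.0288 to 0.0858 and unadjusted p from 0.000145 to 0.00141. Within the high run it was -0.38 ± 0.20 and within the low run -0.76 ± 0.22 (edgeR adjusted p = 0.367 and 0.0769), and the runs differed by 0.38 ± 0.29 (edgeR adjusted p = 0.574). Of 9 muscle markers tested, pvalb1 and pvalb2 were lower at 3 years (log2 fold change -0.09 and -0.35). The others and all 6 liver markers were higher, without passing the edgeR test. At an unadjusted p of 0.05, 5 of 9 muscle and 3 of 6 liver markers were higher, beside 11.4% of all genes. The median log2 fold changes of the muscle and liver markers were 1.14 and 2.04. Their summed levels ranged from 3680 to 42700 CPM (muscle) and from 5.2 to 1150 CPM (liver) at 3 years, and from 2340 to 18200 CPM and from 2.62 to 149 CPM at 1 year and 37.5 nM. With the muscle mean as a term tefa had a log2 fold change of -0.51 (edgeR adjusted p = 0.0559), and with the liver mean -0.54 (0.0838). With all 26 fish in the fit it was -0.57 (edgeR adjusted p = 0.0635). At an unadjusted p of 0.05, 8.91% of all genes were lower and 11.4% higher at 3 years. Among the 8 mucous cell and ionocyte markers, 3 were lower by that measure and none higher. Of these the mucin gene muc5.1 passed (28.4 ± 22 CPM at 3 years and 109 ± 30.4 CPM at 1 year and 37.5 nM, SD, n = 8 and 9; edgeR adjusted p = 0.0279), and the summed list ranged from 528 to 1530 CPM at 3 years and from 958 to 1710 CPM at 1 year. Among the epidermal markers cyt1 passed, with a log2 fold change of 3.25 (edgeR adjusted p = 0.0365). Its level was low, at 3.95 ± 4.68 CPM at 3 years and 0.416 ± 0.167 CPM at 1 year and 37.5 nM (SD, n = 8 and 9). Of the 16 epidermal markers tested, 5 were higher and 1 lower at an unadjusted edgeR p of 0.05, beside 11.4% and 8.91% of all genes. The higher ones included krt94 (531 ± 269 CPM at 3 years and 313 ± 73.4 CPM at 1 year, log2 fold change 0.78) and krt15 (0.43). The lower one was cldni (1100 ± 223 and 1550 ± 251 CPM, -0.48). The most abundant keratin genes krt5, krt91 and krt4 had log2 fold changes of 0.09, -0.03 and 0.06. The part of the mucous cell, ionocyte and epidermal markers in the tefa difference was not tested.

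The other 5 genes did not pass between ages. For dbpb the lowest value was 2.67 CPM, the median 6.23 CPM and the highest 7.35 CPM at 3 years, against 6.77, 7.67 and 10.5 CPM at 1 year. It was lower in 94.4% of the 72 pairs of fish, with a log2 fold change of -0.53 ± 0.18 (edgeR adjusted p = 0.13), beside -0.56 ± 0.13 for tefa. The value for tefb was -0.47 ± 0.22, that for hlfa -0.23 ± 0.16 and that for dbpa -0.18 ± 0.15, with edgeR adjusted p of 0.232, 0.426 and 0.512. For nfil3-5 it was 0.45 ± 0.36 (edgeR adjusted p = 0.496), and the 3-year values ran from 43.2 CPM to 313 CPM, so that the 1-year range of 57.9 to 235 CPM lay inside them. Without the highest of these fish, replicate 8, it was 0.24.

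The age and the concentration comparison share the 1-year fish at 37.5 nM. Side by side, the log2 fold changes for age and concentration were -0.18 and -1.41 for dbpa, -0.53 and -0.63 for dbpb, -0.23 and 0.69 for hlfa, 0.45 and 1.14 for nfil3-5, -0.56 and -0.10 for tefa, and -0.47 and 0.16 for tefb. No gene of the core clock list passed between ages by edgeR, 10 of 37 passed at an unadjusted p of 0.05 (1 higher and 9 lower, where 20.4% of all genes passed), and the list's median log2 fold change was -0.17, beside 0.03 over all genes tested. None of the 12 mammalian PAR bZIP target genes and none of the 10 light-driven genes passed either by edgeR, with 4 and 3 at an unadjusted p of 0.05.

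Between the high and the low fish numbers, tefb was higher in the high run and was the only 1 of the 6 genes to pass. Of the 20482 genes tested, 13.4% passed in either direction and 6.85% were higher. The value of tefb was 35.5, 65.4, 50.6 and 66.7 CPM in the high run at 3 years, against 58.1, 20.6, 37.9 and 33.0 CPM in the low run. At 1 year and 37.5 nM it was 80.9, 77.1, 71.5, 84.1 and 65.5 CPM in the high run, against 44.4, 58.6, 39.2 and 55.0 CPM in the low run. At 1 year and 3.75 nM it was 32.4, 69.8, 100, 74.6 and 77.8 CPM in the high run, against 39.6, 38.9, 38.6 and 41.8 CPM in the low run. The runs did not overlap at 1 year and 37.5 nM, as held there for 12.6% of all genes, and in the 3.75 nM group they overlapped through replicate 5 alone. That fish had the lowest tefb of the high run and, at 8.43 CPM, the highest dbpa of it, within the low-run range of 5.49 to 10.5 CPM for dbpa.

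Over all 26 fish, with group as a term, the log2 fold change of tefb was 0.68 ± 0.15 (edgeR adjusted p = 0.0056). By group it was 0.55 ± 0.27 at 3 years, 0.64 ± 0.26 at 1 year and 37.5 nM, and 0.84 ± 0.26 at 1 year and 3.75 nM, of which that at 3.75 nM passed on its own (edgeR adjusted p = 0.0326). In these contrasts 0.918%, 1.21% and 16.8% of all genes passed. In the 17 fish at 37.5 nM alone it was 0.59 (edgeR adjusted p = 0.0564). Between the runs 13.4% of all genes passed, 6.85% as higher and 6.55% as lower. Markers of several cell types were among them, including those of dermis and scale. Their mean log2 CPM ranged from 6.02 to 8.79 in the high run and from 5.43 to 7.60 in the low run. Of 10, 6 were higher in the high run, with a median log2 fold change of 1.25, and COL1A1, the most abundant, averaged 10300 ± 5880 CPM in the high run and 2110 ± 1990 CPM in the low run (SD, n = 14 and 12). With the dermis mean as a term, tefb had a log2 fold change of 0.75 (edgeR adjusted p = 0.0346). Of 17 epidermal markers 3 passed, close to the share of all genes. Of these, krt17 (-1.56) and krt4 (-0.63) were lower and TP63 (0.48) higher in the high run. Of 8 mucous cell and ionocyte markers, foxi3b (-1.76) was lower and ATP1B1 (0.45) higher, and of 4 erythrocyte markers tested hbaa2 (2.78) was higher. These 6 had edgeR adjusted p values from 0.000117 to 0.0407, and their part in the tefb difference was not tested. None of the 6 liver markers passed by edgeR, and 2 were lower at an unadjusted p of 0.05, beside 13.7% of all genes. The median log2 fold change of the 6 was -1.69. With the liver mean as a term tefb had 0.68 (edgeR adjusted p = 0.00741).

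The remaining genes did not pass between the runs. The value for nfil3-5 was -0.47 ± 0.25 (edgeR adjusted p = 0.213), and 12 of the 14 high-run fish lay below the low-run median. Without replicate 8 at 3 years, the high-run fish with 313 CPM, it was -0.72 with an edgeR adjusted p of 0.0403, whereas with the dermis mean as a term it was -0.10. The others lay between -0.22 ± 0.16 for dbpa and 0.16 ± 0.13 for dbpb. Of the 3 relatives tested, 1 passed between the runs, where 13.4% of all genes did. It was nfil3-6, higher in the high run (49.7 ± 17.1 CPM in the high run and 29.2 ± 12 CPM in the low run, SD, n = 14 and 12; edgeR adjusted p = 0.0281). HLF (-0.63 ± 0.23, edgeR adjusted p = 0.0639) and NFIL3 (-0.25 ± 0.16, 0.312) went the other way without passing.

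Of the core clock list, 12 of 37 genes passed between the runs, 6 higher and 6 lower. The list's median log2 fold change was -0.08, beside 0.03 over all genes tested. BHLHE41 (1.16 ± 0.21) and BHLHE40 (-0.79 ± 0.21), which encode repressors at E-boxes, went opposite ways. Higher were CRY1 (ENSDARG00000011583, 0.75 ± 0.17), ciartb (0.76 ± 0.19), CSNK1D (0.52 ± 0.14), a kinase of period proteins, and cry3b (0.51 ± 0.15), and lower were rorca (-0.74 ± 0.21) and BMAL1 (ENSDARG00000006791, -0.49 ± 0.14). These 8 had edgeR adjusted p values from 0.0021 to 0.0229. Of the mammalian PAR bZIP targets, 2 of 12 passed, a share close to the 13.4% of all genes. They were ALAS1, the first enzyme of haem synthesis (1.19 ± 0.29), and POR (ENSDARG00000059035, 0.91 ± 0.26), the electron donor of cytochrome P450 enzymes, both higher in the high run (edgeR adjusted p = 0.00957 and 0.0257). Of the 10 light-driven genes, 1 passed, again close to that share. It was NEIL1, a DNA glycosylase gene, which was lower (-0.49 ± 0.12, edgeR adjusted p = 0.0129).

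Over the 6 combinations of group and run, each gene had its own order of mean levels, and nearly all neighbours overlapped. The levels of tefa ran from 404 CPM in the low run at 1 year and 3.75 nM down to 203 CPM in the low run at 3 years, with every neighbour overlapping. For tefb the 3 high-run groups came first (75.8, 70.9 and 54.5 CPM) and the 3 low-run groups after them (49.3, 39.7 and 37.4 CPM), again with every neighbour overlapping. For dbpa both 3.75 nM groups stood on top with 7.24 and 4.77 CPM, and the step from there to the next, 2.31 CPM in the low run at 1 year and 37.5 nM, was the only one in any of the 6 genes without overlap. That step restates the lack of overlap between concentrations for dbpa, and its share over all genes was not computed. Both 3.75 nM groups were also on top for dbpb (12.7 and 12.6 CPM) and at the bottom for hlfa (40.2 and 36.4 CPM) and nfil3-5 (62.0 and 46.9 CPM).

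From fish to fish within groups, 15 pairs of the 6 genes were compared with group means removed, and none passed after adjustment. Run means were not removed, so differences between the runs remain in the pooled r and its permutation p. The lowest p was that of tefb with dbpa, with Pearson's r = -0.531 (permutation p = 0.00838, adjusted 0.126) and Spearman's rho = -0.519 (permutation p = 0.0105, adjusted 0.115) over 26 fish. Without the 2 fish farthest from the median of tefb, r was -0.544. In the high run it was -0.647 (permutation p = 0.0671, n = 14) and in the low run -0.081 (permutation p = 0.622, n = 12). Leaving out the 2 fish farthest from the median of tefb within each run gave r of -0.254 in the high run and -0.012 in the low run. The next was hlfa with nfil3-5, with r = 0.456 (permutation p = 0.0347, adjusted 0.26) and rho = 0.479 (permutation p = 0.0204, adjusted 0.115). Without the 2 farthest fish r was 0.402, within the high run it was 0.625 (permutation p = 0.0386, n = 14) and within the low run 0.353 (permutation p = 0.3, n = 12). For tefa with tefb the pooled r was -0.068 (permutation p = 0.774, adjusted 0.894), with -0.17 in the high run (permutation p = 0.733, n = 14) and 0.805 in the low run (permutation p = 0.0579, n = 12). Without the 2 fish farthest from the median, the low-run value was 0.151. For dbpa with dbpb the pooled r was 0.27 (permutation p = 0.0721, adjusted 0.361), with 0.713 in the high run (permutation p = 0.0183, n = 14, and r = 0.657 without the 2 farthest fish) and -0.128 in the low run (permutation p = 0.503, n = 12). The p-values within runs are not adjusted, and the difference between runs was not tested.

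**Figure D5:**
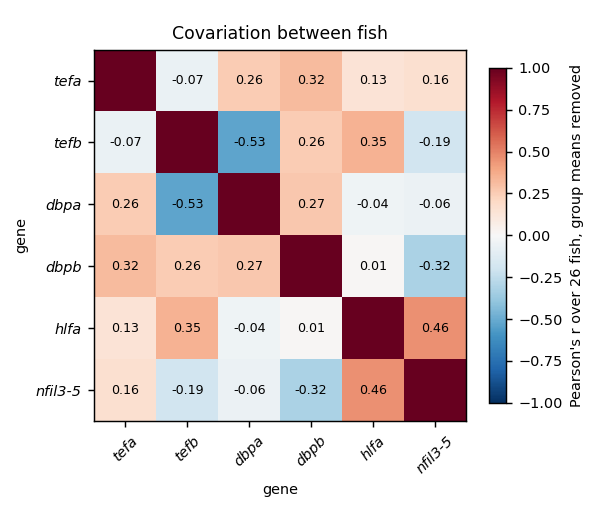
Pearson's r between the log2 CPM of the 6 genes over 26 fish, with group means removed; colour runs from -1 (blue) to 1 (red). The values outside the diagonal lie between -0.53 (tefb with dbpa) and 0.46 (hlfa with nfil3-5), and the Tef paralogues stand at -0.07 over both runs, with -0.17 in the high and 0.805 in the low run alone.

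The genes with the most similar pattern were therefore sought among 14831 genes, again with group means removed over 26 fish. These r are descriptions, and all genes were measured in the same libraries, with the same differences in depth and run. The group means removed were those over both runs, also for the r within a run. Differences between groups inside a run therefore remain in it, unlike in the pairs above. The closest gene to nfil3-5 was rorcb (r = 0.885), followed by SASH1 (0.857), CLOCK (ENSDARG00000003631, 0.788), ENSDARG00000043237 (0.778) and tmem131l (0.778). In the low and the high run, r was 0.796 and 0.905 for rorcb, 0.641 and 0.91 for SASH1, and 0.512 and 0.844 for CLOCK. It was 0.731 and 0.846 for ENSDARG00000043237, and 0.729 and 0.74 for tmem131l. Of the clock list, BMAL1 (ENSDARG00000035732) stood at 0.764 and bmal2 at 0.774 with nfil3-5. The closest to tefb were zgc:113162 (0.946), RASGEF1B (0.932), SLC16A12 (0.924), STK35 (0.913) and TIAM1 (0.909), the highest values of any of the 6 genes, and all 5 kept an r of at least 0.787 within each run. Of the clock list, CRY1 (ENSDARG00000011583) stood at 0.818 and BHLHE40 at -0.752 with tefb. Both also differed between the runs (log2 fold change 0.75 and -0.79), as did tefb (0.68). Their r with tefb within a run was not computed.

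For the other 4 genes the nearest patterns were less close. For tefa they were YAF2 (0.774), lygl1 (0.768), AP3M2 (0.758), ENSDARG00000089720 (0.746) and MAP3K7 (0.745). For dbpa they were zgc:153675 (0.741), AIDA (0.719), CHSY3 (0.717), SERPINH1 (0.715) and SLC39A13 (0.687). In the low run these stood between 0.107 (AIDA) and 0.579 (CHSY3), against 0.762 (CHSY3) to 0.893 (AIDA) in the high run. For dbpb they were TMEM170A (0.789), ENSDARG00000098660 (0.716), si:ch211-225o7.1 (0.705), serpina10a (0.68) and FOXK2 (0.676). In the high run TMEM170A stood at 0.618 and the other 4 between 0.269 and 0.465, against 0.807 to 0.905 for the 5 in the low run. For hlfa the nearest was LMBR1L with only 0.71, then IQSEC2 (0.624), plekhg7 (0.618), sh2d7 (0.604) and si:ch211-154o6.3 (0.597).

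Neighbouring genes could share reads with 3 of the 6, since whether counting used strand is not stated. In RefSeq's GRCz12tu annotation nfil3-5 overlaps rgl3a and LOC137495917 and lies beside its paralogue nfil3-3, which was not analysed here. Between concentrations rgl3a had a log2 fold change of 0.22 ± 0.20 (edgeR adjusted p = 0.543), against 1.14 for nfil3-5, and its r with nfil3-5 was 0.482. The gene tefb overlaps plbd1a (ENSDARG00000063313), whose log2 fold change between runs was 0.10 ± 0.17 (edgeR adjusted p = 0.736), against 0.68 for tefb. Its r with tefb was 0.049. Between concentrations plbd1a passed (0.63 ± 0.17, edgeR adjusted p = 0.0431), whereas tefb did not. The gene hlfa overlaps LOC141381130. How far reads are shared in the authors' counts was not tested.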

How the data were processed

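Total RNA of skin was sequenced from 26 fish, and libraries were made with a TruSeq RNA v2 kit, per the labels' protocols. CASAVA 1.8.2, STAR 2.4.1d, featureCounts 1.4.6-p4 and the GRCz10 build are named in the submitters' processing notes. The authors deposited whole-number counts per Ensembl gene without normalization, and RPKM values, in 1 pair of tables for each concentration. In the deposited RPKM the divisor for depth repeats every 50 genes in place of following the library, so they served only to give relative gene lengths for CPM per kb. Groups came from the age and perturbation labels. Replicate numbers name fish in deposition order and pair nothing, and whether any fish shared a tank is not given in the sources used here. No 2 libraries of a group agreed within sampling noise.

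After filterByExpr and TMM scaling, counts of all genes entered the quasi-likelihood test of edgeR 4.0.16 (glmQLFit, robust, in R 4.3.3), and Benjamini-Hochberg adjusted p under 0.05 counted as called. The standard error is the log2 fold change over the square root of F. The biological coefficient of variation was 0.396 for age, 0.4 for concentration and 0.423 for the runs. Log2 CPM used a prior count of 2, and permutation tests of correlations, two-sided, drew 100000 permutations within groups. The procedure was tested on simulated data. Total counts per fish were 25454674 to 35162246 at 3 years, 25968091 to 32414459 at 1 year and 37.5 nM, and 26161555 to 28481706 at 1 year and 3.75 nM. Percentiles per length are among genes tested.

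The 6 genes and the lists were chosen with earlier results of these data known. Of 182 list symbols, 31 had no match in the tables or the RefSeq names. Besides the 6 genes, those named are list members past the threshold (at most 8 per comparison in order of p), the 5 genes with the highest r to each of the 6, and up to 3 abundant markers. Other genes were named after their values were seen. These were cry3b, rorcb and uncalled period, NR1D and BMAL1 genes between concentrations, HLF and NFIL3, and clock genes beside nfil3-5 and tefb. Other tissue markers and overlapping neighbours were also among them. Some list members are not reported here. Alternatives were RLE factors, no filter, DESeq2 1.42.0, muscle, liver or dermis marker means as a term (the last 2 added after seeing the data), run as a term, each run alone, all fish in the fit, fish at 37.5 nM alone and leaving out each fish. Protein and promoter sequences were not used here.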

Additional observations from a re-analysis of the deposited data

How the results depend on the processing

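The 4 concentration calls kept their sign under every alternative run, as did tefa for age and tefb for the runs; RLE factors and the run as a term changed no call of the 6 genes, and DESeq2 called the same 4 for concentration, tefa for age and tefb for the runs. All 26 fish in the fit ended the tefa call (-0.57, edgeR adjusted p = 0.0635), as did the muscle mean, the liver mean and each run alone. The nfil3-5 call for concentration ended with the muscle mean, in the low run alone (1.23, edgeR adjusted p = 0.0503) and in the high run alone, that of dbpb with the muscle mean and in the high run alone, those of dbpa and hlfa in the high run alone, and that of tefb for the runs at 37.5 nM alone. Counts of all genes called depended more on the processing. For age (241) they were 1076 with DESeq2, 34 in the low run alone, 19 in the high run alone and 96 with the liver mean as a term, and 64 to 712 over omissions of a fish. For concentration (804) they were 209 with no filter, 1862 with DESeq2, 20 with the muscle mean, 1427 with run as a term, 5024 in the low run alone and 0 in the high run alone (edgeR, with 995 genes at an unadjusted p of 0.05). Over omissions they ran from 0 without replicate 7 at 37.5 nM (edgeR, 3885 at an unadjusted p of 0.05) to 1661 without replicate 9 at 3.75 nM. For the runs (2746) they were 973 at 37.5 nM alone, 1120 with the dermis mean, and 1956 to 3517 over omissions. Values that changed sign were all small and uncalled: tefa for concentration (0.02 in the high run alone) and, for the runs, tefa (0.01 at 37.5 nM alone, 0.05 with the dermis mean) and hlfa (0.02 at 37.5 nM alone, 0.04 with the dermis mean, 0 with the liver mean, and -0.11 to 0.00 over omissions). The cause was not tested. No paired analysis was possible because the fish numbers are unique to a fish and the replicate numbers only follow the order of deposition. The counts of dbpa, 40 to 298 per fish, are the lowest of the 6.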
